A study of Caenorhabditis elegans with 2 samples.

Results

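The cytochrome P450 genes of Caenorhabditis elegans were examined for regions bound by SKN-1 in first-stage (L1) larvae. They were chosen as the protein-coding genes of the Ensembl annotation of assembly WBcel235, identical to ce11, whose name is cyp- followed by a number, which gave 74 of 19973 genes on the 6 nuclear chromosomes, in 25 subfamilies defined by the number and letter of the name. The ChIP-seq was done on whole L1 larvae, males and females pooled per the labels, of strain OP178, which is mutant for unc-119 (allele ed3, chromosome III) and carries wgIs178, the insertion that encodes SKN-1 tagged with eGFP. There was 1 group of 2 biological replicates and no second condition, no worms without the tag were analysed here, and the promoter and expression pattern of the transgene are not given in the labels.

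Cytochrome P450s are haem monooxygenases that take electrons from NADPH-cytochrome P450 reductase and insert oxygen into lipophilic substrates, the first phase of detoxification. The family also makes and breaks down signalling lipids and sterols. In the worm many members are expressed in the intestine and are induced by foreign compounds, whereas SKN-1, the counterpart of the mammalian Nrf factors, is best known for genes of the second, conjugating phase such as glutathione S-transferases.

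A gene was assigned a region when the region's summit lay from 1000 bp upstream to 200 bp downstream of any of its annotated transcript starts, called its promoter window here. Regions came from the ce11 lists deposited by the authors. These held 3484 optimal peaks, from their reproducibility procedure, 27729 regions called on both replicates pooled, and 30000 regions for each replicate. The last 3 lists hold background as well as peaks. Every region carries the authors' signal value, in a unit that is not stated, and was ranked by it within its own list. The optimal peaks were the 3484 strongest pooled regions, so the lowest optimal signal, 33, also divides the pooled list. A single optimal peak therefore need not rank high in both replicates. Read numbers are not in these lists, so sequencing depth is unknown. Because one group was measured, no test between conditions was possible; genes of 1 family are not replicates, since they share sequence and sometimes a promoter. Whether the regions depend on the tagged protein was not tested. Shares of the family and of its larger subfamilies are set beside the same share over all genes without a test.

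The sequences at the 3 optimal peaks in cyp promoters are shown first because every statement on strong binding in the family rests on them. Each runs on the plus strand of ce11 up to 75 bp to either side of the summit, cut where annotated untranslated sequence began. Capitals mark the core of the known SKN-1 site, which is GTCAT or, in its other form, ATCAT, on either strand. The genome sequence is that of RefSeq for WBcel235.
cyp-33C6 and cyp-33C7, chrV:2250196-2250346: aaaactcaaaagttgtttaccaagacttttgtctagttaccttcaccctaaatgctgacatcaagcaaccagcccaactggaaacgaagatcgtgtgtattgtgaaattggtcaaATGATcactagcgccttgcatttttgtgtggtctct
cyp-33C8, chrV:3803543-3803637: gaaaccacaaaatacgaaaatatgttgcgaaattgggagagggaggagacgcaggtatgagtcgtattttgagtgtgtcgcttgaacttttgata
cyp-43A1, chrX:5714201-5714351: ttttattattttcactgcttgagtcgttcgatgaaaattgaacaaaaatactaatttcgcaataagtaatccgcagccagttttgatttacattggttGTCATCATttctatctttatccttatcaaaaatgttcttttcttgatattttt

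The optimal peaks reached 4 of the 74 cyp genes (5.41%, Wilson 95% interval 2.12 to 13.1), where 15% of all protein-coding genes had one. Of the 4, cyp-43A1 stood alone in its subfamily, and the rest belonged to 33C: cyp-33C8, and the pair cyp-33C6 and cyp-33C7, which share 1 peak, so that the family had 3 such sites. Among as many of its own strongest regions, replicate 1 had a summit at 6 cyp genes (8.11%, 3.77 to 16.6), against 14.1% of all genes. Replicate 2 had one at 4 (5.41%, 2.12 to 13.1), against 14.9%. The 4 genes of the optimal list were in both replicates' sets, and the further pair in replicate 1 was cyp-33C4 and cyp-33C5. These intervals cover the counting of genes only.

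The share of promoters with a region of any strength was near that of all genes. In the pooled list, 34 cyp genes had a summit in the promoter window (45.9%, 35.1 to 57.2), against 44.7% of all genes. The full list of replicate 1 reached 32 cyp genes, or 43.2%, against 45.8% of all genes, and that of replicate 2 also reached 32, against 46.1%. The members' strongest pooled region had a median rank of 14461, against 7118 over all genes with one. For 18 of the 34 cyp genes (52.9%) it ranked below the 13864 strongest pooled regions, as it did for 30.8% of all genes with a region. Of the genes with a pooled region, 11.8% of the cyp genes and 33.7% of all genes had an optimal peak.

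**Figure D1:**
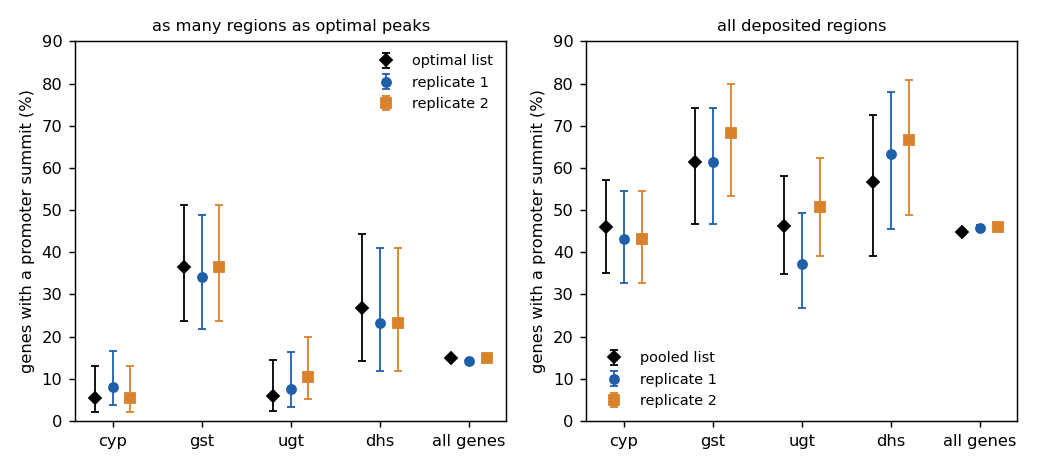
Percentage of genes with a region summit in a promoter window for the cyp, gst, ugt and dhs families and for all protein-coding genes, with Wilson 95% intervals; the left panel uses the 3484 strongest regions of each list and the right panel all deposited regions. On the left the cyp points lie at 5.41, 8.11 and 5.41%, below the 14.1 to 15% of all genes, while on the right they lie at 43.2 to 45.9%, near the 44.7 to 46.1% of all genes.

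Other enzyme families of detoxification, set beside the cyp genes by the same rule, differed widely. Over all protein-coding genes 15% had an optimal peak. Glutathione S-transferases (names gst- and a number), which couple glutathione to reactive compounds, had an optimal peak at 16 of 44 members (36.4%, 23.8 to 51.1) and a median best pooled rank of 2244. Short-chain dehydrogenases (dhs-) had one at 8 of 30 (26.7%, 14.2 to 44.4). UDP-glucuronosyltransferases (ugt-), which attach sugars to small lipophilic molecules, had one at 4 of 67 (5.97%, 2.35 to 14.4), close to the 5.41% of the cyp genes. Among the strongest regions of replicates 1 and 2, 15 and 16 of the 44 gst genes had a summit (34.1 and 36.4%), against 14.1 and 14.9% of all genes. In the pooled list 61.4% (46.6 to 74.3) of gst genes had one, against 45.9% of cyp genes and 44.7% of all genes. The families were chosen with earlier results of these data known, and differences between them were not tested.

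The strongest site of the family lay between cyp-33C6 and cyp-33C7, a divergently transcribed pair on chromosome V. The peak, which spans 2250123 to 2250418, is intergenic, with its summit 269 bp upstream of cyp-33C7 (WBGene00018260) on the plus strand and 861 bp upstream of cyp-33C6 (WBGene00018264) on the minus strand. It had a signal of 99.3 and rank 670 among the optimal peaks. Replicate 1 gave it a signal of 39.8 and rank 877, and replicate 2 gave 59.4 and rank 612, with summits 0 and 1 bp from the pooled one. The replicates thus placed it at the same base to within 1 bp. The sequence above holds the SKN-1 core once, as ATCAT on the minus strand.

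The peak at cyp-33C8 (WBGene00019967), chromosome V from 3803414 to 3803709, lay at the transcript start itself. Its summit was 20 bp upstream of the start, and it had a signal of 83 and rank 959. Replicate 1 gave a signal of 30.7 at rank 1373, with its summit 31 bp away, and replicate 2 gave 52 at rank 819, with its summit 1 bp away. Neither form of the core occurs within 75 bp of the summit. No other protein-coding gene had this peak in its promoter window.

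The remaining peak, at cyp-43A1 (WBGene00017108), covered positions 5714128 to 5714423 of the X chromosome. Its summit lay 246 bp before the start. Its signal was 67.8 and its rank 1393. Here the order of the replicates was turned round, with a signal of 35.2 at rank 1075 in replicate 1 and 30.5 at rank 2099 in replicate 2. The sequence holds both forms of the SKN-1 core, overlapping, and 1 TGATAA on the minus strand, the core of GATA factor sites. The CYP-43A1 protein is 24.6 to 26.9% identical to the 3 CYP-33C proteins with a peak, against 50 to 87.6% between members of 33C.

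Just outside the optimal list were 3 further members of family 33, each with a region near its start in both replicates. The first, cyp-33A1 (WBGene00015709), had a pooled signal of 31.4 at rank 3681, with 11.9 at rank 4624 in replicate 1 and 15.5 at rank 5003 in replicate 2. The second, cyp-33C4 (WBGene00018413), had a pooled signal of 31 at rank 3727, with 17 at rank 3016 in replicate 1 and 14.3 at rank 5593 in replicate 2. The third, cyp-33C5 (WBGene00018261), had 26.6 at rank 4420, with 18 at rank 2835 and 14 at rank 5791. At cyp-33C4 the replicates' summits lay apart, 38 bp upstream of the start in replicate 1 and 159 bp upstream in replicate 2. Replicate 1 alone would have placed the last pair among its 3484 strongest regions. Their summits lay 53, 41 and 52 bp upstream of the starts, and their sequences up to the transcript start, shown because they sit just below the threshold, were as follows.
cyp-33A1, chrV:7681460-7681587: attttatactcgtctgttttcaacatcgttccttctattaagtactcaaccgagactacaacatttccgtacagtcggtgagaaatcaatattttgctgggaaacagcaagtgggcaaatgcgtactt
cyp-33C4, chrV:2236024-2236139: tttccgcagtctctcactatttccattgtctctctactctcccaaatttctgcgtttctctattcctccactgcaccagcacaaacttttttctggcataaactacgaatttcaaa
cyp-33C5, chrV:2244877-2245003: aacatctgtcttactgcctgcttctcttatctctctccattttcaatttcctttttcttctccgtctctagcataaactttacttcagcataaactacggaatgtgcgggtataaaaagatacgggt

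None of these 3 stretches holds the SKN-1 core, the GATA core or TGACNNNGC, the core of the mammalian antioxidant response element. Those of cyp-33C4 and cyp-33C5 share a run of 12 bases, gcataaactacg, the longest run common to any 2 of the 6 sequences. The proteins of this pair are 85.4% identical.

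**Figure D2:**
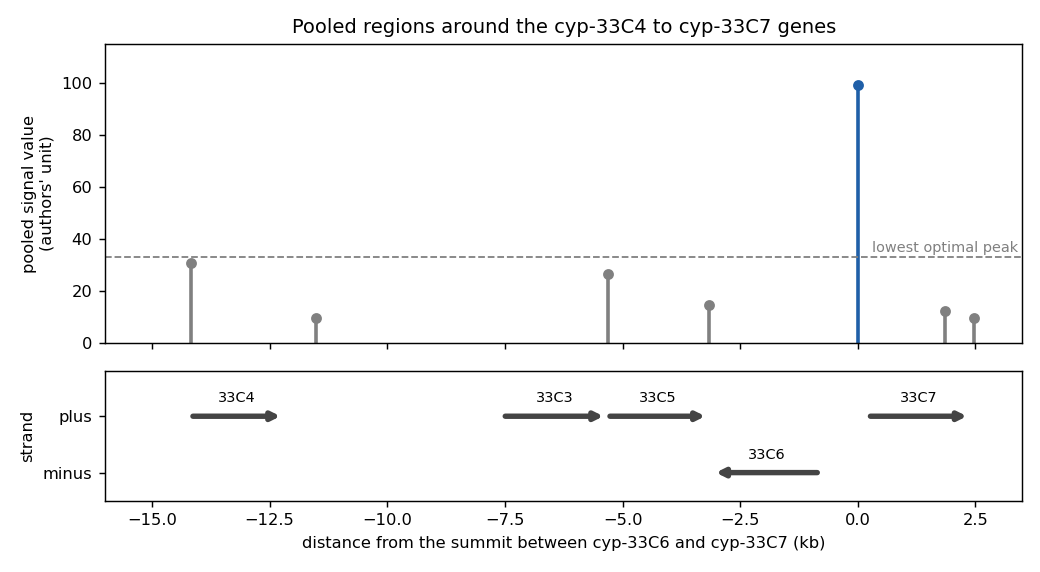
Signal of each pooled region (upper panel, authors' unit; blue is the optimal peak, grey the weaker regions, dashed line the lowest optimal signal) and the protein-coding genes (lower panel, arrows by strand) against distance in kb from the summit between cyp-33C6 and cyp-33C7. The shared peak reaches 99.3, the regions at the starts of cyp-33C4 and cyp-33C5 reach 31 and 26.6, and no region stands at the start of cyp-33C3.

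Subfamily 33C held most of the strong regions of the cyp genes. Of its 11 genes, all on chromosome V, 3 had an optimal peak (27.3%), against 15% of all genes. With each peak given only to its nearest gene the count was 2, since cyp-33C6 and cyp-33C7 share 1 peak, against 10.9% of all genes. No interval was computed for these small counts. A pooled region stood at 7 of the 11 (63.6%, 35.4 to 84.8), against 44.7% of all genes, which lies inside that interval. The same number, 7, had a region in both replicates, against 32.4% of all genes. Among them was cyp-33C2, whose replicate 1 summit lay 2816 bp from the pooled one, near another of its starts. Outside 33C, 1 of 63 genes had an optimal peak (1.59%) and 27 of 63 a pooled region (42.9%, 31.4 to 55.1), with a region in both replicates at 12. Within 33C the other members with a pooled region were cyp-33C2 (signal 16.2, rank 8791) and cyp-33C9 (12.5, rank 14211). The 4 without one were cyp-33C1, which had a weak region in replicate 2 only (rank 24579), and cyp-33C3, cyp-33C11 and cyp-33C12, which had none in any list. CYP-33C3 and CYP-33C4 are 87.6% identical, the highest of the 55 pairs, although cyp-33C4 had a region and cyp-33C3 did not. Only 78.8% of the promoter window of cyp-33C3 is sequence found once in the genome, against 95.5% of that of cyp-33C4, and whether reads could be placed there was not tested.

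**Figure D3:**
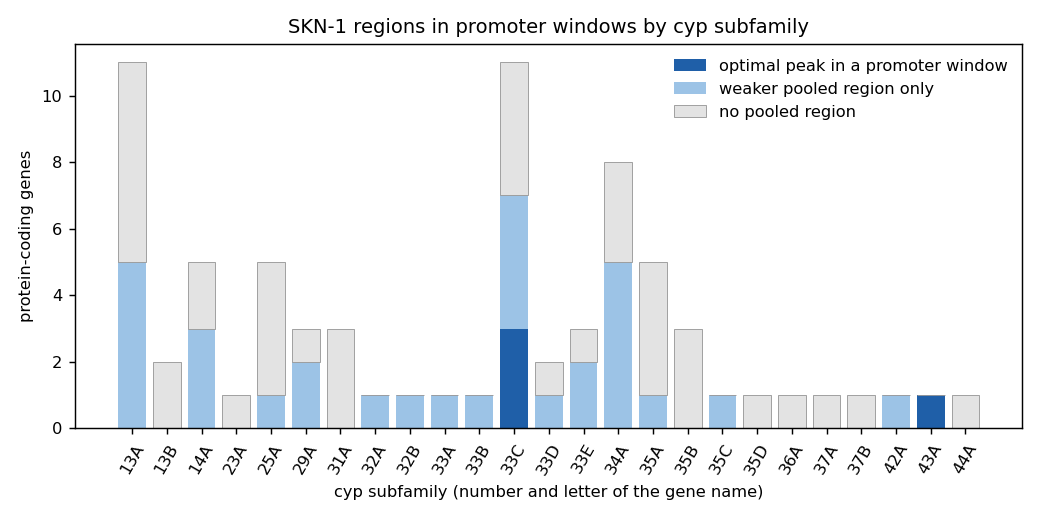
Number of protein-coding cyp genes in each subfamily, split into those with an optimal peak, those with a weaker pooled region only and those with no pooled region in a promoter window. Optimal peaks stand in 33C (3 genes) and 43A (1 gene), and 9 subfamilies with 14 genes in all have no pooled region. Over all protein-coding genes 11053 of 19973 have none, and 13 of the 25 subfamilies hold 1 gene.

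In subfamilies 13A, 34A, 14A and 33E no gene had an optimal peak, against 15% of all genes, and the share with a pooled region had an interval that included the 44.7% of all genes. In 13A, whose members are related to human CYP3A enzymes, 5 of 11 genes had a pooled region (45.5%, 21.3 to 72), the strongest being cyp-13A1 (pooled signal 17.5, rank 7736). The replicates disagreed on it: replicate 1 had rank 21855 with its summit 341 bp upstream of the start, and replicate 2 had rank 6171 at 29 bp upstream. Weaker still were cyp-13A2 (15, rank 10078) and cyp-13A5 (12.9, rank 13425). The gene cyp-13A7, induced by rifampicin, had a region of replicate 1 only (rank 16212), 833 bp upstream of it and 34 bp downstream of the start of its divergent neighbour cyp-13A6, and cyp-13A12, which acts in the behavioural response to reoxygenation, had a pooled signal of 8.74 at rank 27236 and a region of replicate 2 only (rank 8244). In 34A, 5 of 8 genes had a pooled region (62.5%, 30.6 to 86.3), led by cyp-34A8 (18.3, rank 7210) and cyp-34A1 (13.4, rank 12488). In 14A it was 3 of 5 (60%, 23.1 to 88.2), with cyp-14A1 at 15 (rank 10130) and cyp-14A5 at 12.9 (rank 13381), each with a region of replicate 1 and none of replicate 2. Of the 3 cyp-33E genes, 2 had a pooled region (66.7%, 20.8 to 93.9), and all 3 had a region of replicate 2 and none of replicate 1. Among the 2 was cyp-33E2, an enzyme of eicosanoid synthesis, at 12.1 (rank 14992). That summit lay 800 bp upstream of cyp-33E2, in an untranslated exon of F42A9.6 and 402 bp from the start of F42A9.17. A weaker region (11.2, rank 17451) had its summit 43 bp upstream of a cyp-33E2 start. The single member of 32B, cyp-32B1, had 16.2 at rank 8738 and a region of replicate 2 only.

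The cyp-35 genes are widely used as a sign of xenobiotic exposure. Of the 10, in subfamilies 35A to 35D on chromosome V, 0 had an optimal peak, against 15% of all genes. A pooled region stood at 2 (20%, 5.67 to 51), against 44.7% of all genes and 36.1% of those on chromosome V, both inside that interval. None of the 10 had a region in both replicates, against 32.4% of all genes. Those with one were cyp-35A2, which affects fat storage, with a pooled signal of 10.8 at rank 18731 and no region in either replicate, and cyp-35C1, with 10.5 at rank 19782 and a region of replicate 2 only. The other 8, including cyp-35A3, cyp-35B1 and the thiabendazole-metabolising cyp-35D1, had no region in the pooled list or either replicate's list. The promoter windows of cyp-35A4 and cyp-35A5 are 75.5 and 80.5% unique sequence and those of the other 8 are 99.4 to 100%.

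The eggshell genes cyp-31A2 and cyp-31A3, with cyp-31A5, the eicosanoid gene cyp-29A3, the mitochondrial-type cyp-44A1 and cyp-37A1 had no region in their windows in any list. For cyp-36A1, which acts downstream of egl-9 and hif-1 in egg laying, there was a weak region of replicate 2 only (signal 6.02, rank 24460). For cyp-42A1 the pooled list had 11.8 at rank 15850, with no region of either replicate. In all, 27 of the 74 genes (36.5%) had no region in the pooled list or either replicate, against 38.5% of all genes.

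**Figure D4:**
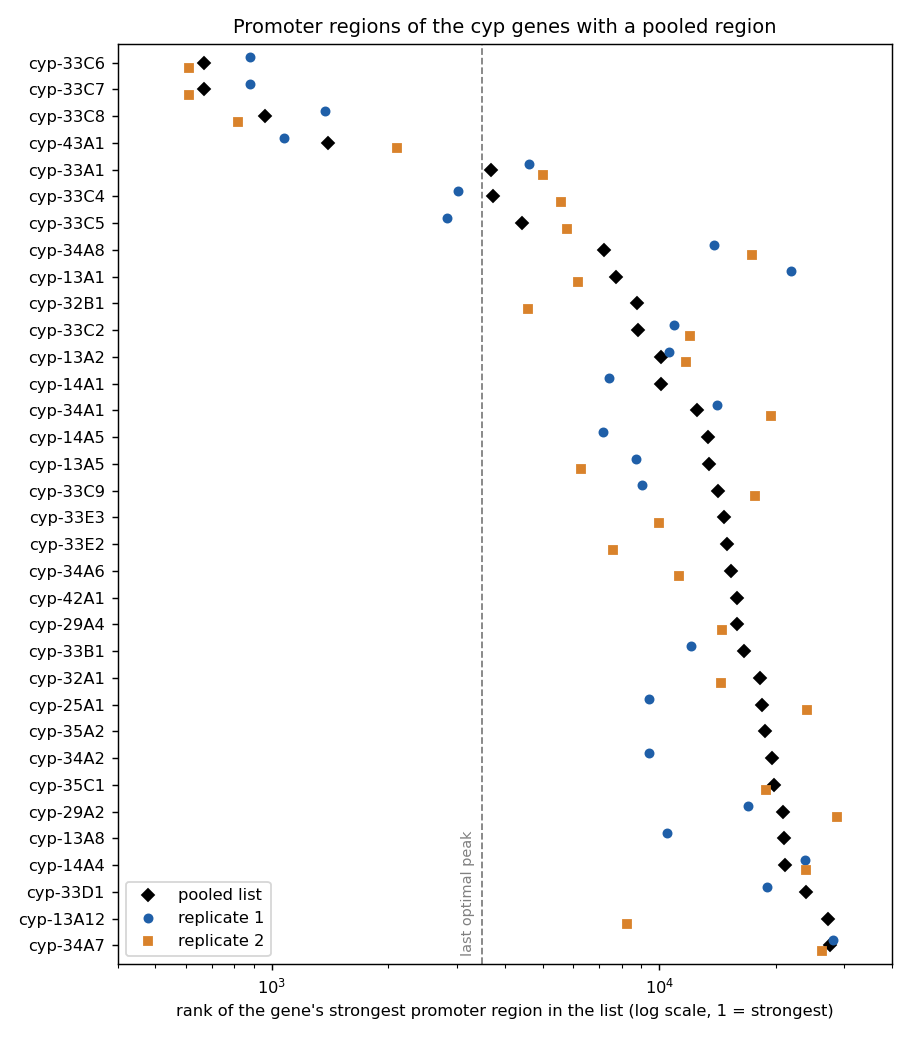
Rank (log scale, 1 is the strongest) of the strongest promoter region of each of the 34 cyp genes with a pooled region, in the pooled list (black), replicate 1 (blue) and replicate 2 (orange); the dashed line marks the last of the 3484 optimal peaks. From cyp-33C6 to cyp-43A1 all 3 points lie left of the line, cyp-33C4 and cyp-33C5 have replicate 1 left of it, and the other members lie to its right.

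At the 3 optimal sites both replicates had a strong region, and below them they often differed. Optimal peaks were the strongest regions of both replicates pooled, so this contrast follows in part from that selection by pooled signal. Of the 45 cyp genes with a region in either replicate's full list, 19 had one in both (42.2%, against 54.5% over all genes), 13 in replicate 1 only and 13 in replicate 2 only. Among the 19, the summits lay within 100 bp of each other for 11 (57.9%, against 69.1% over all genes). In cyp promoter windows 34 distinct pooled regions had their summit. Of these, 3 also lay in the window of a gene that is not a cyp, and 32 had a cyp start as the nearest start. The same shares over all pooled regions are not given here. Each gene's strongest pooled region lay upstream of the start for 29 of 34 genes (85.3%, against 88.5% over all genes). Its median position was -168 bp from the start, against -250 bp.

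Position in the genome was uneven for the cyp genes and for binding. Chromosome V carries 41 of the 74 genes (55.4%), against 25% of all protein-coding genes, and 33 of the 41 lie outside the middle of 3 equal parts of that chromosome. In those outer parts 3 of 33 cyp genes (9.09%) had an optimal peak, close to the 8.26% of all genes there, and 16 of 33 (48.5%) had a pooled region, against 33.3%. Over the whole of chromosome V, 3 of 41 cyp genes (7.32%) had an optimal peak, against 10.3% of all genes there. The pooled share on that chromosome was 23 of 41 cyp genes (56.1%), against 36.1% of all genes. Off chromosome V it was 11 of 33 (33.3%), against 47.5%, and 1 of the 33 (3.03%) had an optimal peak, against 16.6%. Much of the family stands in tandem arrays, and 45 genes lay in 11 groups whose neighbouring members were less than 20000 bp apart. The array of cyp-33C4 to cyp-33C7 was the only 1 of the 11 with an optimal peak in a promoter. The largest array, 10 genes from cyp-35A5 to cyp-34A10 between 3936326 and 3972991 of chromosome V, had 3 genes with a pooled region, cyp-34A6, cyp-34A7 and cyp-34A8.

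Some members have promoters with near-identical copies elsewhere. For 12 of 74 genes (16.2%, against 13.3% of all genes) under 90% of the promoter window is sequence found once in the genome, counted in stretches of 36 bases. The read length is not given, and the part of such copies in these counts was not tested. Of these 12, 0 had an optimal peak, against 7.09% of all such genes. A pooled region stood at 2 of them, cyp-13A8 and cyp-13A12 (16.7%, against 22.3% of all such genes). Among the 62 members with more unique windows, 4 had an optimal peak (6.45%, against 16.3% of such genes) and 32 a pooled region (51.6%, against 48.1%). In 25A, 4 of 5 genes had windows of 34.8 to 83.3% unique sequence and no region in any list. Of all protein-coding genes 38.5% had none. The fifth, cyp-25A1, with a fully unique window, had a pooled region (signal 10.9, rank 18477). Its summit lay 850 bp upstream of cyp-25A1 but 260 bp from the start of C36A4.10.

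Optimal peaks outside the windows added few candidates. No optimal summit lay inside a cyp gene body, and 13 of 74 genes (17.6%) had one within 5000 bp of a start, against 33.4% of all genes. The median distance from a cyp gene's start to the nearest optimal summit was 17038 bp, against 10385 bp over all genes. Besides the 3 promoter peaks, cyp genes had the nearest start for 2 optimal peaks. One lay 2637 bp upstream of cyp-36A1, with rank 1991. The other lay 1543 bp upstream of cyp-37A1, inside an intron of F01D5.10, with rank 2296. A peak of rank 2957 lay 1778 bp upstream of cyp-33D3 but 301 bp from the start of nhr-65.

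The SKN-1 core was counted in both forms together and in each form alone. Within 75 bp of the summit, either form of it on either strand occurred in 2 of the 3 optimal peaks of cyp genes, in 16 of their 31 weaker pooled regions (51.6%, 34.8 to 68), in 42.5% of all optimal peaks and in 45% of the pooled regions outside the optimal list. Windows of the same 151 bp centred 100 bp upstream of the first start of every protein-coding gene held it in 44.9%. With the strongest regions of replicate 1 alone, which add those of cyp-33C4 and cyp-33C5, the share of cyp sites with it was 40% of 5, in place of 66.7% of 3. The form ATCAT alone was in 2 of the 3 optimal peaks and in 15 of the 31 weaker regions (48.4%, 32 to 65.2), against 27.1% of all optimal peaks, 31.8% of the other pooled regions and 31.7% of promoters. The form GTCAT alone was in 1 of 3 and in 6 of 31 (19.4%, 9.19 to 36.3), against 25% of all optimal peaks, 21.1% of the other pooled regions and 20.9% of promoters. For TGATAA the counts were 1 of 3 and 6 of 31 (19.4%, 9.19 to 36.3), against 8.47% of all optimal peaks, 15.2% of the other pooled regions and 17.9% of promoters. The letters TGACNNNGC occurred in 0 of 3 and 0 of 31, against 3.87% of all optimal peaks and 2.44% of promoters. Both forms of the SKN-1 core can overlap each other and the GATA core, so these counts are not independent, and a match shows only that the letters are present.

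Genes that work with the P450s were examined as a list of 20 partners, receptors and regulators, of which 5 had an optimal peak (25%, 11.2 to 46.9), against 15% of all genes. A pooled region stood at 14 (70%, 48.1 to 85.5), against 44.7% of all genes. The 20 genes were chosen with earlier results of these data known, so these shares describe the list only. Among the electron donors, cytb-5.1, a cytochrome b5, had an optimal peak at rank 3428, near the end of that list, and ranked 7496th in replicate 1 and 3331st in replicate 2. For emb-8, the NADPH-cytochrome P450 reductase, the pooled region ranked 4423, and the replicates differed, since replicate 1 ranked it 2922 with a summit 933 bp upstream and replicate 2 placed it at 19330 with a summit 587 bp upstream. The haem transporter hrg-1 had the strongest peak of the list, with a pooled signal of 121 at rank 432 and ranks 174 and 1607 in replicates 1 and 2. The other optimal peaks were at nhr-48, a nuclear receptor (rank 1739), aha-1, the partner of the aryl hydrocarbon receptor (rank 1943), and hif-1, the hypoxia factor (rank 2549). The receptor gene ahr-1 itself, the xenobiotic receptor gene nhr-8 and the dafachronic acid genes daf-36 and daf-9 had no region in any list; daf-9 encodes a cytochrome P450 whose name falls outside the rule used here. The epoxide hydrolase genes ceeh-1 and ceeh-2, whose enzymes act on P450 products, had pooled regions at ranks 9747 and 20977, and mdt-15, a coactivator of detoxification genes, had one at rank 15765.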

How the data were processed

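ChIP-seq of eGFP-tagged SKN-1 was done in 2 biological replicates, with fragments of 150 to 350 bp per the labels. Per the deposited readme, each replicate's regions were made from its alignments and 1 control alignment shared by both, the pooled list from both replicates together, and the optimal list by the irreproducible discovery rate (IDR) procedure from these 3. Each region has a signal value, deposited by the authors with its scale unstated, used here only to rank and describe regions within a list. The sources used here do not name the caller, aligner, IDR threshold, control strain, read length or depth. The ce10 lists were not used, since the annotation is ce11. Summits were taken as column 2 plus column 10, and positions are counted from 1. A promoter's unique share is the share of 36-base stretches starting in it that occur once in the 6 nuclear chromosomes on either strand. Protein identities are over aligned residues of the longest translated annotated coding sequence (Biopython global alignment, BLOSUM62). Python 3.11.15, numpy 2.4.6, scipy 1.17.1, Biopython 1.88 and matplotlib 3.10.9 were used, and promoter assignment was tested on simulated summits.

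No test was made, because 1 group holds no comparison between conditions. The members, the 20 partner genes, the comparison families and the motifs were chosen with earlier results of these data known. Genes named are those with an optimal peak or a region among either replicate's strongest, the next 12 by pooled rank, and members with a known role; others were named after their values were seen.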

Additional observations from a re-analysis of the deposited data

How the results depend on the processing

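The 4 cyp genes with an optimal peak were 3 to 6 under the alternatives tried, and the loss of 1 with a window of 500 bp upstream and 100 bp downstream, or with each peak given only to its nearest gene, was cyp-33C6 in both cases. A window of 2000 bp upstream added cyp-37A1 and cyp-33D3. Over all genes the share with an optimal peak was 19% with that window, 12.2% with the shorter window and 10.9% by nearest gene, against 15%. With the 1742 strongest optimal peaks the same 4 cyp genes had one (5.41%, 2.12 to 13.1). The share of all genes was then 8.8%, which lies inside that interval. Leaving out 1 replicate gave 3 to 5 cyp-33C genes, against 3 with both; replicate 1 alone added cyp-33C4 and cyp-33C5. With the 13864 strongest pooled regions, 16 cyp genes had a region in place of 34, and 30.9% of all genes did. The cyp-35 count of 2 was 4 with the window of 2000 bp, 0 with the stronger pooled regions and 0 to 1 from a single replicate's list. For all genes the pooled share of 44.7% became 55.9% with the window of 2000 bp and 30.9% with the stronger pooled regions. It was 45.8 and 46.1% in the full lists of replicates 1 and 2. The median distance to the nearest optimal summit, 17038 bp, was 29943 bp with the 1742 strongest optimal peaks, which are fewer, and 18582 to 18626 bp with 1 replicate left out. No paired analysis was possible because there is 1 group. Depth is unknown, so a promoter with no region cannot be told apart from one with too few reads.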
